A study of Mus musculus with 7 samples.

Results

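The 82 genes described here are the cytosolic ribosomal protein genes of the mouse as an Agilent 2-colour array names them, measured in dorsal skin. They were chosen by name: every spot that was not a control and whose gene name began with Rpl or Rps and a digit, together with Rplp0, Rplp1, Rplp2 and Rpsa, and without the Rps6k kinases. These genes held 146 of 43379 spots and 137 of 41174 probes, and made up 82 of the 17110 genes tested. All 82 had a probe that passed the filter on dim signal, as did 133 of their 137 probes; the other 4 were further probes of Rps19, Rpl35a, Rps2 and Rps6. By role, 42 genes encode proteins of the large subunit, 31 of the small subunit, 3 of the stalk of the large subunit and 5 a paralog of such a protein (Rpl3l, Rpl7l1, Rpl22l1, Rpl36al and Rps27l). The last gene, Rps19bp1, encodes a partner of Rps19 and not a ribosomal protein, so for this gene the name rule and the class differ.

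The skin RNA came from male mice of the hairless strain HR-1, aged 5 weeks per the labels and fed the purified AIN-93G diet. The GC-fed mice received glucosylceramide (GC), a sphingolipid made of ceramide and a sugar, in that diet, and the control-fed mice received the diet without it. Before the skin was treated with sodium dodecyl sulfate (SDS), a detergent, at 12 days of diet, there were 3 samples per diet; after 2 daily applications of SDS at 10%, at 14 days of diet, there were 4. Each of the 7 arrays held 1 GC-fed and 1 control-fed sample, 1 in Cy3 (green) and the other in Cy5 (red), and the GC-fed sample was in Cy3 on before-SDS array 1 and after-SDS arrays 1 and 2. The labels call the replicates biological but do not say whether a sample was 1 animal or a pool, so the p-values measure the spread between these samples. Before-SDS and after-SDS arrays lay on different slides (0 of 2 slides had arrays of both kinds), so an effect of SDS and one of the slide cannot be told apart. Days of diet, 12 before and 14 after, ran with SDS as well and cannot be told apart from it.

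A cytosolic ribosome is built from a small subunit, which reads the messenger RNA, and a large subunit, which joins the amino acids; each protein is needed in about the same amount, and most are encoded by a single active gene that every growing cell transcribes strongly. Their messengers begin with a run of pyrimidines at the 5′ end, the terminal oligopyrimidine tract, through which growth signalling by the kinase mTOR sets how much of them is translated. Processed pseudogenes of nearly identical sequence are common in this family, so a probe may read more than the gene it is named for.

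Promoter windows were searched for this start-site feature, which was more frequent in these genes than in all genes but not found in each. RefSeq windows (GRCm38.p6, 300 bases, 250 before and 50 from the annotated start) were matched by current symbol for 62 of the 82 genes. The tract searched was a C followed by at least 4 bases that are each C or T, beginning within 10 bases of the start, on the strand of the gene. The tract was counted from such a C nearest the start, so the run of pyrimidines may reach further upstream. A tract was found in 36 of 62 ribosomal protein genes (58.1%) and in 34.4% of all 27025 genes with a window. A tract whose C lay exactly at the annotated start was found in 13 of 62 (21%) and in 3.01% of all. The sequence CCGGAA, the core of sites for ETS family factors, was searched on both strands over the whole window and may overlap the tract; 33 of 62 (53.2%) held it, against 16.7% of all. A match is a stretch of letters and not a measured start or binding site. The windows below run from 30 bases before the start to 20 from it, in the direction of the gene, with the tract nearest the start in capitals; they are given for genes whose level changed with SDS (Rps6, Rps10, Rps26, Rpl24 and Rpl14), for Rps27 with its paralog Rps27l, and for the muscle paralog Rpl3l.
Rps6: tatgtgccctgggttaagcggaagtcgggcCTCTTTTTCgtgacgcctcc
Rps10: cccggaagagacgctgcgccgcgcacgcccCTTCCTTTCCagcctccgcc
Rps26: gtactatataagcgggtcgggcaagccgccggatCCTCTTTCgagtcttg
Rpl24: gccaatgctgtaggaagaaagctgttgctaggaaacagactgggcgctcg
Rpl14: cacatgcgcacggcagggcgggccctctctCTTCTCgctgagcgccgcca
Rps27: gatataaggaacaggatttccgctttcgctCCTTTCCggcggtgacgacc
Rps27l: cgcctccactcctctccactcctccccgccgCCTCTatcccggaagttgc
Rpl3l: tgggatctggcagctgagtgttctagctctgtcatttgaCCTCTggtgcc
The tracts of Rps6 (chr4:86857348-86857397, minus strand), Rps10 (chr17:27635225-27635274, minus strand), Rpl14 (chr9:120571487-120571536, plus strand) and Rps27 (chr3:90213629-90213678, minus strand), as counted, had their C at the annotated start. In each of these genes the run of pyrimidines reaches further upstream than the capitals. That of Rps26 (chr10:128626487-128626536, minus strand) began 4 bases from it, that of Rps27l (chr9:66946056-66946105, plus strand) 1 base and that of Rpl3l (chr17:24727796-24727845, plus strand) 9 bases. In the window of Rpl24 (chr16:55966245-55966294, plus strand) no such tract was found.

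Ribosomal protein spots were among the brightest on every array. They were 0.337% of the spots but gave 6.28% to 7.78% of the summed mean signal in the green channel and 9.39% to 10.5% in the red channel. These sums were taken without background correction, and none of the spots was saturated. Their spots were also marked as outliers by the scanner software more often than their number: 18 of 89 marked spots (20.2%) were theirs. As a result 9 genes (Rpl13a, Rpl41, Rpl5, Rplp1, Rps12, Rps18, Rps19, Rps23 and Rps29) have no value on 1 to 3 arrays, and their fits rest on the others. All 6 keratinocyte markers were well above background in all 14 channels, and so were all 8 markers of skeletal muscle and all 6 of fat cells.

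The first question is whether GC in the diet changed these genes. Values are log2 ratios with GC-fed skin over control-fed skin, so that a positive value is higher in GC-fed skin. On the before-SDS arrays the median of the ribosomal protein genes was -0.36, 0.34 and 0.05, and the genes higher in the GC-fed sample numbered 7 of 80, 74 of 79 and 46 of 82. On the after-SDS arrays the medians were -0.15, 0.03, 0.18 and 0.13, with 23 of 78, 45 of 81, 63 of 80 and 63 of 82 genes higher. All genes tested had medians between -0.02 and 0.02 on the same arrays. The sign went with the dye: written as red over green, the median was above 0 on 6 of 7 arrays, between 0.05 and 0.36, and -0.03 on after-SDS array 2. The dye term of the fit, the part of the log2 ratio that stays with the red channel, was above 0 for 69 of the 82 genes (84.1%; median 0.16), against 58.3% of all genes tested (median 0.02). It passed at an adjusted p of 0.05 in limma for 0 genes of the whole table; at an unadjusted p of 0.05, 37 of 82 ribosomal protein genes and 2134 of 17110 genes passed. Among 256 other genes at least as bright as the lower quartile of the ribosomal protein genes, 57% had a dye term above 0 (median 0.04).

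**Figure D1:**
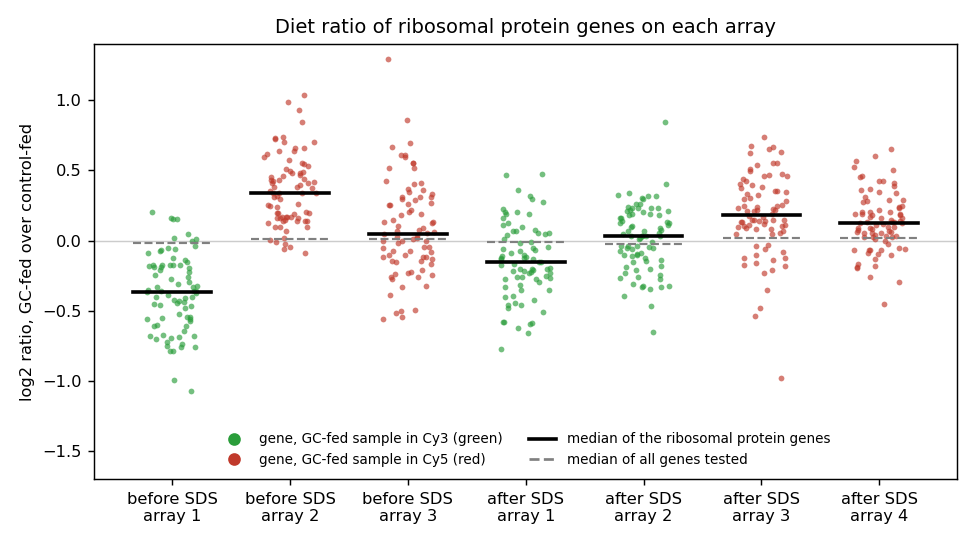
Each point is the log2 diet ratio, GC-fed skin over control-fed skin (vertical axis), of 1 ribosomal protein gene on 1 array (horizontal axis), green where the GC-fed sample was in Cy3 and red where it was in Cy5; the black line is the median of these genes and the dashed line that of all genes tested. The medians run from -0.36 on before-SDS array 1, with GC-fed RNA in Cy3, to 0.34 on before-SDS array 2, with it in Cy5.

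Rpl41, a very short protein of the large subunit, had the largest dye term, 0.94: its ratio was -0.99, 0.93 and 0.86 before SDS and 0.60 on after-SDS array 4, the only after-SDS array with a value. Rps18 of the small subunit read -1.07 on before-SDS array 1 and 0.67 on before-SDS array 3, and then -0.62, -0.39, 0.74 and 0.57 after SDS. In both genes every ratio was negative where GC-fed RNA was in Cy3 and positive where it was in Cy5. Rplp0, the stalk base that anchors Rplp1 and Rplp2, leaned to green, with a dye term of -0.23, and read 0.15, 0.01 and 0.31 before SDS and 0.47, 0.40, -0.23 and -0.45 after. Its probe was spotted 10 times per array, and the SD over these spots was 0.0101 to 0.0272, far under the spread between arrays.

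**Figure D2:**
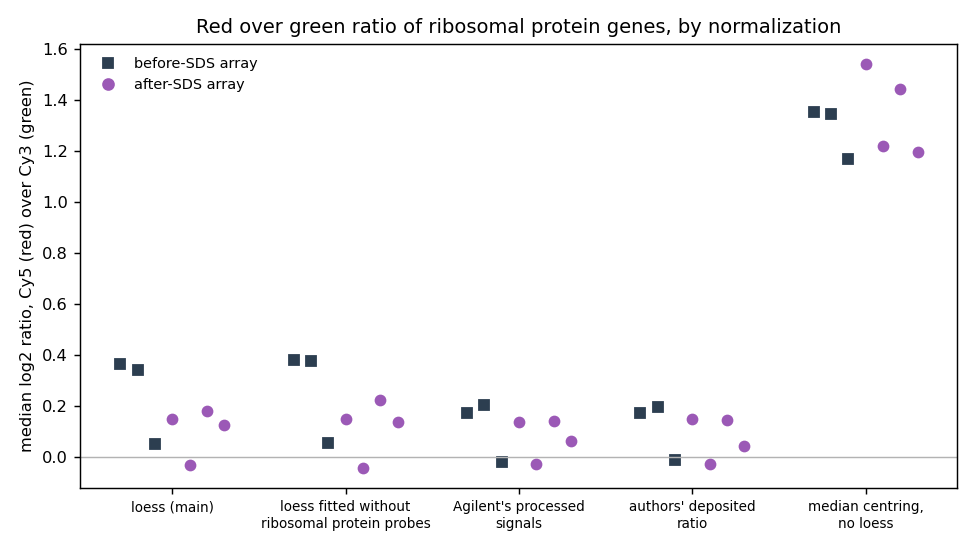
Median log2 ratio of red over green of the ribosomal protein genes (vertical axis) under 5 ways of obtaining the ratio (horizontal axis), with squares for the 3 before-SDS arrays and circles for the 4 after-SDS arrays. The medians lie between -0.03 and 0.36 after loess, and between 1.17 and 1.54 on all 7 arrays when arrays were only centred on the median of their spots. In that setting the genes tested, which leave out dim probes, do not lie at 0 either. Their median ratio of GC-fed over control-fed skin was -0.68 to -0.38 with GC-fed RNA in Cy3 and 0.41 to 0.59 with it in Cy5.

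With the dye as a term, the diet effect before SDS had a median of -0.05 over the ribosomal protein genes and -0.00 over all genes, and 21 of 82 values (25.6%) lay above 0, against 48.8% of all. The median was 0.11 without before-SDS array 1 and -0.15 without before-SDS array 2, so its sign rests on array 1. None of the 82 passed (0 at an adjusted p of 0.05 in limma; background 0%), and 1 passed unadjusted, against 0.397% of all genes. That gene was Rps23, which sits at the decoding centre of the small subunit. Its spot was marked as an outlier on before-SDS arrays 1 and 2, so the comparison rests on 1 ratio, -0.23 on array 3. The fitted value of -0.75 (SE 0.21) takes its dye term of 0.52 and its spread from the after-SDS arrays, and assumes that the lone array varies like those. The next lowest were Rps29 at -0.26 (SE 0.14, no value on array 2) and Rps13 at -0.21 (SE 0.14), both of the small subunit. At the other end stood Rpsa, a small-subunit protein also known as the laminin receptor precursor, which read -0.00, -0.01 and 1.30 on the 3 arrays. Its fitted value of 0.39 (SE 0.26) rests on array 3, where the GC-fed sample stood alone at a level of 14.33 while the other 5 before-SDS samples lay between 12.90 and 13.09. Rplp0 followed at 0.24 (SE 0.14), then Rpl4 of the large subunit at 0.19 (SE 0.17). Both were highest in that same GC-fed sample of array 3. Rpl4 stood there at 14.35, against 13.50 to 13.74 in the other before-SDS samples, and Rplp0 at 15.06, against 14.66 to 14.81. Only Rplp0 and the paralog Rpl7l1 were higher in the GC-fed sample on all 3 arrays, 2 of the 78 genes with a value on each; none was lower on all 3. Of all genes tested, 9.31% were higher and 9.6% lower on all 3.

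After SDS the diet effect had a median of 0.04, and 57 of 82 values (69.5%) lay above 0, against a median of -0.00 and 49.7% for all genes. The 256 other genes of like brightness, described with the dye term, had a median of 0.05 after SDS and -0.01 before. A median above 0 after SDS is therefore not particular to the ribosomal protein genes. The median turned to -0.03 without after-SDS array 2 and was 0.11 without after-SDS array 4. Again 0 of 82 passed (background 0%, limma), and 1 passed unadjusted, against 4.45% of all genes. This was Rpl3l, the form of Rpl3 that striated muscle uses. It read -0.58, -0.32, -0.98 and -0.30 on the 4 arrays, lower in the GC-fed sample on each, with a fitted value of -0.55 (SE 0.20, unadjusted p = 0.031, adjusted p = 0.836, limma). Its core counterpart Rpl3 read 0.27, 0.24, 0.05 and 0.02, higher on each, with a fitted value of 0.15 (SE 0.11). The ratios of the pair had opposite signs on each of the 4 arrays, and neither gene passed.

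The median ratios of muscle and adipocyte markers lay below 0 on the same 4 arrays as Rpl3l, while those of the other cell types changed sign between arrays. On these 4 arrays the median ratio of the 8 muscle markers was -1.42, -0.41, -1.61 and -0.21; all 8 were lower in the GC-fed samples, 0 passed, and 7 of 8 did unadjusted. Their mean level was 13.2 to 14.6 in the GC-fed and 14.8 to 15.5 in the control-fed samples after SDS. All 6 adipocyte markers were lower too, with a median of -0.56 over the genes and medians of -0.48, -0.45, -1.12 and -0.19 on the arrays; 0 passed and 5 did unadjusted. All 8 macrophage and monocyte markers had a fitted value below 0 (median -0.51), with 0 passing, also unadjusted, but their array medians were -0.66, -0.40, -1.23 and 0.48. Keratinocyte (6 of 6), sebaceous (4 of 4) and fibroblast markers (5 of 6) had fitted values above 0, with 0 passing and 0, 1 and 3 doing so unadjusted (limma). On array 4 the keratinocyte median was -0.24 and the sebaceous one -0.09, and on array 1 the fibroblast one was -0.13. Of the hair follicle markers 5 of 9 lay above 0, and of the lymphocyte markers 2 of 5, with 0 passing. The part of these cell types in the value of Rpl3l was not tested, and in bulk skin fewer cells of a type and less RNA per cell cannot be told apart.

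The largest positive diet effects after SDS belonged to genes called lower after SDS in control-fed skin. That call and this comparison share the control-fed samples after SDS. Rps26, which lines the path of the messenger out of the small subunit, read 0.10, 0.30, 0.23 and 0.34, for a fitted value of 0.24 (SE 0.11, unadjusted p = 0.0688, limma). Rpl30 of the large subunit followed at 0.23 (SE 0.11) and Rpl29, also of the large subunit, at 0.19 (SE 0.10). The lowest after Rpl3l were Rpl41 at -0.34 (SE 0.17, fitted with 1 after-SDS array) and Rps14 at -0.22 (SE 0.12). Of 77 genes with a value on all 4 arrays, 4 (Rpl3, Rpl15, Rpl22 and Rps26) were higher on each and 1 (Rpl3l) was lower on each, against 3.35% and 4.61% of all genes.

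The diet effect after SDS minus that before had a median of 0.09, and 64 of 82 values (78%) lay above 0, against 48.5% of all genes. No ribosomal protein gene passed for this difference (background 0%, limma), and 1 did unadjusted, against 1.21% of all. Rps23 led at 0.80 (SE 0.23), again from 1 before-SDS array with the spread of the after-SDS arrays, followed by Rps26 at 0.39 (SE 0.17) and Rpl30 at 0.34 (SE 0.17). The lowest were Rpl3l at -0.46 (SE 0.31), Rpsa at -0.38 (SE 0.34) and Rps14 at -0.37 (SE 0.18). The median turned to -0.05 without before-SDS array 1 and was 0.22 without before-SDS array 2.

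The second question is what changed between the skin before and after SDS. In control-fed skin 14 of the 82 genes passed (17.1%; background 14.9%): 11 were lower after SDS (background 8.1%) and 3 higher (background 6.83%). The median log2 change was -0.08, with 53 of 82 values below 0, against a median of 0.00 over all genes. By role, the 11 were 6 of the 42 large-subunit and 5 of the 31 small-subunit genes, and 0 of the 3 stalk genes and 0 of the 5 paralogs passed. In GC-fed skin 6 passed (7.32%; background 13.5%), 4 lower (background 7.24%) and 2 higher (background 6.27%), with a median of 0.02. The share lower in control-fed skin, 13.4%, lies above that of all genes, and the other 3 shares by direction lie under it. One of the 11 falls, Rps23, rests on 1 control-fed sample before SDS. At an unadjusted p of 0.05, 25 of 82 passed in control-fed (background 32.5%) and 20 in GC-fed skin (background 30.2%, limma). In control-fed skin the samples before and after SDS did not overlap for 4 genes that were higher (background 14.7%) and 13 that were lower (background 16.2%), and in GC-fed skin for 3 higher (background 11.3%) and 5 lower (background 12.1%). The 4 that fell and the 2 that rose in GC-fed skin also did so in control-fed skin; 4 of 82 (4.88%) fell in both diets, against 4.85% of all genes, and 2 rose in both, against 3.72%. The calls in control-fed skin leaned on before-SDS array 1: without it 1 gene was higher and 0 lower, while over all genes the share called fell to 0.661%. The counts changed by 1 call at most with the background fit. On before-SDS arrays 1 and 3 and after-SDS array 1, 3 to 17 spots per channel lay below their local background, and the fitted correction there raised dim signal: the 5th percentile of the green channel of after-SDS array 1 went from 58.4 to 748 intensity units, against 64.4 to 65.1 on the other after-SDS arrays. When the correction was fitted without those spots, a choice made after seeing the data, 11 genes were lower and 2 higher in control-fed skin, where 16.1% of all genes were called, and 4 lower and 2 higher in GC-fed skin, where 11.8% were.

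Rps10, of the head of the small subunit, had the smallest p in both diets. Its level, a log2 intensity, was 14.56, 14.31 and 14.44 in control-fed skin before SDS and 14.03, 14.00, 14.05 and 13.95 after. In GC-fed skin it was 14.38, 14.47 and 14.33 before and 13.96, 13.90, 13.98 and 14.01 after. In both diets every sample after SDS lay under every sample before. The log2 change was -0.44 (SE 0.07, adjusted p = 0.00293, limma) in control-fed and -0.42 (SE 0.07, adjusted p = 0.00497, limma) in GC-fed skin, which leaves 73.5% and 74.9% of the level before.

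Rps6, the substrate of the S6 kinases that growth signals switch on, gave nearly the same picture. Control-fed skin read 15.33, 14.92 and 15.14 before and 14.68, 14.81, 14.62 and 14.60 after, and GC-fed skin 14.97, 15.27 and 15.17 before and 14.66, 14.66, 14.73 and 14.63 after. No sample after SDS reached the lowest sample before. The change was -0.48 (SE 0.08, adjusted p = 0.00405, limma) and -0.44 (SE 0.08, adjusted p = 0.00735, limma).

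Rps15, a further protein of the small-subunit head, fell by 0.48 on the log2 scale (SE 0.09, adjusted p = 0.00659, limma) in control-fed and by 0.38 (SE 0.09, adjusted p = 0.0182, limma) in GC-fed skin. Control-fed levels were 13.11, 13.02 and 13.24 before and 12.66, 12.47, 12.73 and 12.66 after, again without overlap. Rpl21 of the large subunit had the largest fall, from 11.49, 11.63 and 11.69 to 10.95, 10.16, 10.93 and 10.61 in control-fed skin and from 11.51, 11.61 and 11.19 to 11.03, 10.47, 10.58 and 10.66 in GC-fed skin. This is -0.92 (SE 0.18, adjusted p = 0.00766, limma) and -0.78 (SE 0.18, adjusted p = 0.0169, limma). The probe behind it was designed from a predicted transcript, and the second Rpl21 probe, designed from the curated transcript, read 0.03 (SE 0.07) and 0.07 (SE 0.07), so the array holds no common answer for Rpl21.

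**Figure D3:**
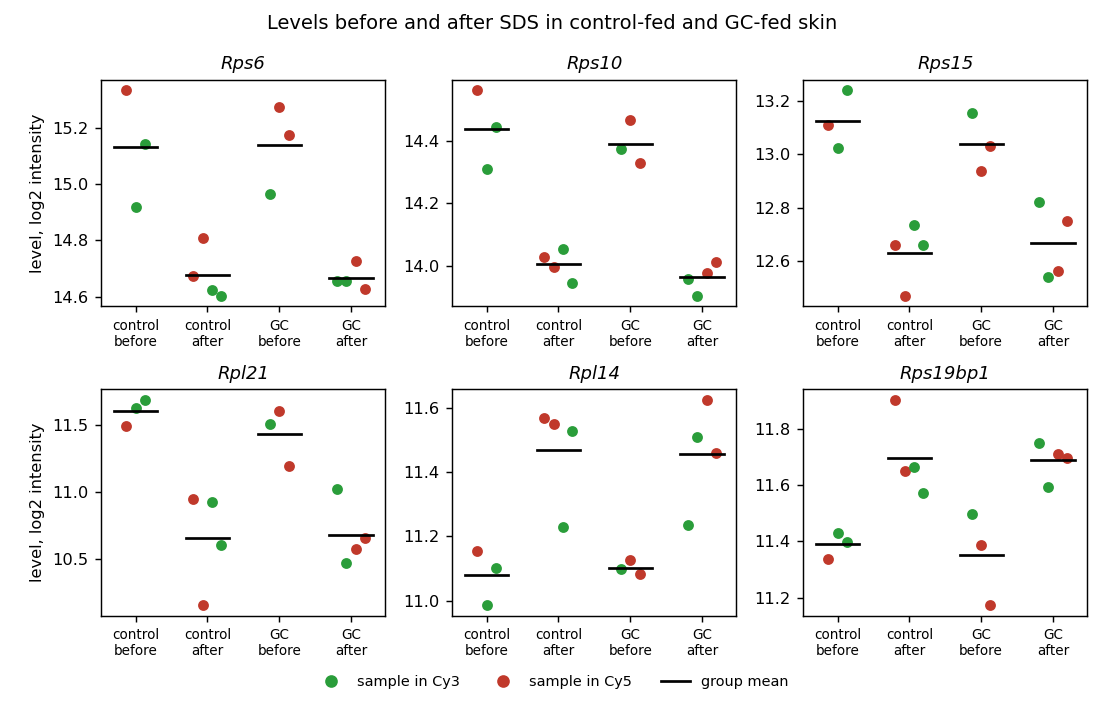
Level of 6 genes (vertical axes, log2 intensity after Aquantile normalization, a separate scale per gene) in control-fed and GC-fed skin before and after SDS (horizontal axes); each point is 1 sample, coloured by its dye, and the line is the group mean over 3 samples before and 4 after. For these 6 genes the samples before and after SDS do not overlap in either diet: Rps6, Rps10, Rps15 and Rpl21 lie lower after SDS, and Rpl14 and Rps19bp1 higher.

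Rpl14 of the large subunit and Rps19bp1 rose in both diets. Rpl14 went from 11.15, 10.99 and 11.10 to 11.57, 11.55, 11.23 and 11.53 in control-fed skin, a change of 0.37 (SE 0.09, adjusted p = 0.0193, limma), and by 0.38 (SE 0.09, adjusted p = 0.0201, limma) in GC-fed skin. Rps19bp1 changed by 0.31 (SE 0.09, adjusted p = 0.046, limma) and 0.33 (SE 0.09, adjusted p = 0.0356, limma), from 11.34, 11.43 and 11.40 to 11.90, 11.65, 11.66 and 11.57 in control-fed skin. Its second probe gave 0.35 and 0.33 and passed in both diets too. With the background fitted without the spots below it, Rpl14 gave 0.37 and 0.40 and passed in both diets, while Rps19bp1 gave 0.31 (adjusted p = 0.0552, limma) in control-fed skin and passed in GC-fed skin at 0.36. With that background and each array set to the same median as well, Rpl14 gave 0.23 and 0.26 (adjusted p = 0.145 and 0.112, limma) and Rps19bp1 0.16 and 0.21 (adjusted p = 0.313 and 0.205, limma). The control-fed call of Rps19bp1 was also lost in 6 of the 7 fits that left out 1 array.

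Rps14, a small-subunit platform protein, rose in control-fed skin by 0.53 (SE 0.10, adjusted p = 0.00684, limma) and gave 0.16 (SE 0.10, adjusted p = 0.302, limma) in GC-fed skin. Its raw levels overlap, since red samples read higher than green ones: before SDS the red sample stood at 17.54 and the green ones at 16.52 and 16.75, and after SDS the red ones at 17.84 and 17.78 and the green ones at 17.42 and 17.23. Within each dye every sample after SDS lay above every sample before.

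The other 7 calls in control-fed skin were falls. Rpl30 fell from 14.95, 14.86 and 14.91 to 14.21, 14.40, 14.13 and 14.39, a change of -0.65 (SE 0.13, adjusted p = 0.00766, limma). Rpl29 fell from 13.72, 13.55 and 13.62 to 13.29, 13.12, 13.09 and 13.13, a change of -0.50 (SE 0.09, adjusted p = 0.00589, limma), and Rps26 from 15.04, 14.94 and 14.94 to 14.53, 13.97, 14.38 and 14.37, a change of -0.66 (SE 0.17, adjusted p = 0.0219, limma). In all 3 the control-fed samples before and after SDS did not overlap, while the GC-fed samples did; the GC-fed changes were -0.31, -0.23 and -0.27. Rpl24 (-0.43, SE 0.11), which reaches across to the small subunit, Rpl10a (-0.31, SE 0.08), which forms the flexible L1 stalk, and Rpl18 (-0.30, SE 0.08) passed with adjusted p of 0.0249 to 0.0279 in limma, and gave -0.10, -0.26 and -0.10 in GC-fed skin. Rps23 (-0.59, SE 0.13, adjusted p = 0.02, limma) was fitted without before-SDS arrays 1 and 2, so 1 control-fed sample at 17.30 stands for the state before SDS, inside the range of 16.64 to 17.33 after. The fit takes the spread from the other groups and assumes that the lone sample varies like them. The value turned to 0.17 with each array at the same median. Its GC-fed value was 0.22 (SE 0.13), also with 1 sample before SDS.

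**Figure D4:**
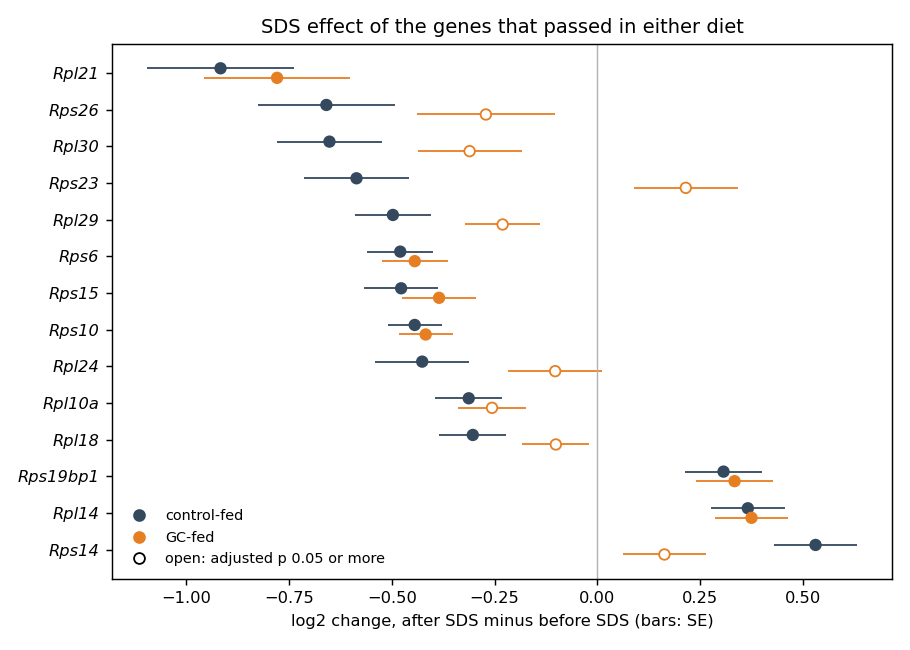
Log2 change from before to after SDS (horizontal axis, with the SE of the fit as bars) of the 14 genes that passed in either diet (vertical axis), in control-fed and in GC-fed skin; filled points passed at an adjusted p of 0.05. Rps6, Rps10, Rps15, Rpl14 and Rps19bp1 have similar values in both diets, while Rps26, Rpl30, Rpl24 and Rps14 are closer to 0 in GC-fed skin.

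The difference between the SDS effects of the diets is the same quantity as the diet effect after SDS minus that before, here with the SE of the separate-channel fit. No ribosomal protein gene passed for it (0 of 82, background 0%, limma), and 2 did unadjusted, against 1.8% of all genes. Calls in control-fed skin that are absent in GC-fed skin are thus not shown to differ, and 6 of the 7 genes called lower in control-fed skin alone had a value below 0 in GC-fed skin as well.

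The remaining genes that are often used as references or are known beyond the ribosome did not pass for SDS. Rpl32 and Rpl13a, common reference genes, changed by -0.05 (SE 0.08) and 0.02 (SE 0.11, without before-SDS array 1) in control-fed skin and by -0.03 and -0.03 in GC-fed skin. Rps18 gave -0.00 (SE 0.10) and 0.27 (SE 0.10), with an adjusted p of 0.0991 for the latter in limma. Rpl5 and Rpl11, which bind Mdm2 when ribosome assembly is disturbed, gave 0.17 and 0.09 in control-fed and 0.13 and 0.17 in GC-fed skin. Rps27a, made as a fusion with ubiquitin, gave -0.19 (SE 0.10) and -0.09 (SE 0.10). On the stalk, Rplp1 gave 0.03 and 0.17, Rplp2 0.15 and 0.18, and Rplp0 -0.15 (SE 0.11) and -0.34 (SE 0.11, adjusted p = 0.0638, limma). The 2 probes that the file lists under Arbp, an older name of Rplp0, lie outside the name rule and gave 0.02 and 0.07 in control-fed and 0.03 and -0.05 in GC-fed skin.

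The paralogs did not pass in any comparison (0 of 5 in limma). Rps27l, a paralog that p53 induces, changed by 0.05 (SE 0.11) and 0.17 (SE 0.11) with SDS, and Rps27 by 0.04 (SE 0.08) and 0.02 (SE 0.08). Rpl22l1 gave -0.07 and 0.22, and Rpl22 -0.28 and -0.08. For Rpl7l1 the values were 0.20 (SE 0.07, adjusted p = 0.0603, limma) and 0.06, and for Rpl7 0.03 and 0.23. Rpl36al gave -0.15 and 0.03, and Rpl36a -0.13 and 0.11. Rpl3l gave -0.08 in control-fed and -0.54 (SE 0.18, adjusted p = 0.0654, limma) in GC-fed skin, where its levels were 10.80, 11.00 and 11.56 before and 10.47, 10.82, 10.26 and 10.69 after. These groups overlap. The core gene Rpl3 gave -0.22 and -0.14. Rpl10 and Rpl39, whose paralogs Rpl10l and Rpl39l have no spot under those names, and the X-linked Rps4x gave -0.24, -0.06 and -0.11 in control-fed and -0.07, 0.00 and -0.07 in GC-fed skin.

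Different probes of a gene often disagreed. Of the 39 ribosomal protein genes with several probes, all probes of a gene had the same sign of the SDS change in 18 (46.2%) in control-fed and in 20 (51.3%) in GC-fed skin, against 54.8% and 54.6% of other genes. Testing each probe alone called 27 of 132 probes in control-fed skin (22 lower, 5 higher; background 13.4%) and 18 in GC-fed skin (15 lower, 3 higher; background 12.2%). In control-fed skin 9 genes were called by a further probe but not by their brightest one, among them Rps3, Rps19, Rpl7, Rpl35a and Rpsa. Rps3, which lines the entry of the messenger, gave 0.12 (SE 0.09) on its brightest probe and -0.57 (SE 0.11, adjusted p = 0.00805, limma) on the other, and in GC-fed skin 0.04 and -0.52. Rps19, the gene most often mutated in Diamond-Blackfan anaemia, gave 0.19 (SE 0.10, without after-SDS array 1) and -0.40 (SE 0.10), and Rpsa -0.15 (SE 0.25) and 0.34 (SE 0.09). Rpl29 is the case of agreement: its 4 probes gave -0.50, -0.78, -0.87 and -0.62 in control-fed skin and -0.23, -0.55, -0.66 and -0.36 in GC-fed skin, with all 4 passing in the former and 3 in the latter. For genes whose probes differ in sign the array holds no common SDS value, and Rps10, Rps6 and Rps15 rest on 1 passing probe each.

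**Figure D5:**
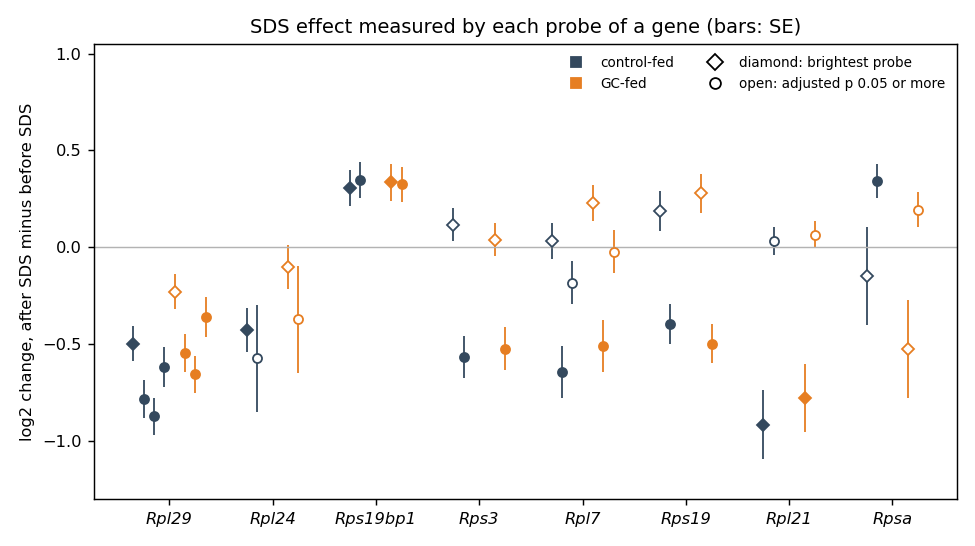
Log2 change from before to after SDS (vertical axis, bars SE) as measured by each probe of 8 genes (horizontal axis), in control-fed and GC-fed skin; diamonds mark the brightest probe, which stands for the gene elsewhere, and filled symbols passed at an adjusted p of 0.05. All probes of Rpl29 lie below 0 and both of Rps19bp1 above 0, while the probes of Rps3, Rps19, Rpl21 and Rpsa lie on both sides of 0 in control-fed skin.

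Other genes of ribosome production were counted in the same fits. Of all genes tested, 6.83% were called higher and 8.1% lower in control-fed skin, and 6.27% and 7.24% in GC-fed skin. In either direction that is 14.9% and 13.5%. The lists ran from 9.68% called (initiation factors, both diets) to 27.3% in control-fed and 36.4% in GC-fed skin (RNA polymerase I, 11 genes). Ribosome assembly factors had 13.2% and 26.3% called, and mitochondrial ribosomal protein genes 25.6% in both diets. Of 19 elongation factors and other messengers with a 5′ pyrimidine tract, 3 were lower and 0 higher after SDS in control-fed skin (median -0.09), and 3 lower and 2 higher in GC-fed skin; Eif3f fell by 0.73 and 0.57, Tpt1 by 0.47 and 0.43, and Eef2, which moves the ribosome along the messenger, by 0.66 in control-fed skin. Of 38 ribosome assembly factors, 2 were higher and 3 lower in control-fed and 5 higher and 5 lower in GC-fed skin, with Tsr1, needed for the small subunit, at -0.56 and -0.43 and Tcof1, a nucleolar factor, at 0.61 and 0.73. Of 11 genes of RNA polymerase I, which makes ribosomal RNA, 3 were lower in both diets (Polr1d -0.51 and -0.55, Polr1b -0.40 and -0.34, Taf1d -0.35 and -0.32), and 0 were higher in control-fed and 1 in GC-fed skin. The list of initiation factors does not hold Eif3f, an initiation factor counted above with the pyrimidine-tract messengers. Of its 31 genes, 3 were higher and 0 lower in control-fed and 2 higher and 1 lower in GC-fed skin. Eif5b stood at 0.35 and 0.44 and Eif3g at 0.24 and 0.35. Among mitochondrial ribosomal protein genes, 19 of 78 were higher and 1 lower in control-fed skin (median 0.12), and 15 higher and 5 lower in GC-fed skin (median 0.10), led by Mrpl11 at 0.49 and 0.34. Of 13 genes of growth control, 1 was higher and 2 lower in control-fed and 2 higher and 1 lower in GC-fed skin, with Mtor at -0.51 and -0.53 and Myc at 0.41 and 0.38. The S6 kinase genes that the name rule leaves out had 2 of 9 higher in control-fed and 1 in GC-fed skin, with Rps6ka3 at 0.57 and 0.49. For the diet effects 0 genes of these lists passed (background 0%).

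Markers of cell types moved between the same samples. The lists are short, and the shares of all genes called higher and lower were 6.83% and 8.1% in control-fed and 6.27% and 7.24% in GC-fed skin. After SDS, 3 of 9 hair follicle markers were higher in control-fed and 6 of 9 in GC-fed skin, with a mean level of 12.0 to 14.1 before and 13.5 to 14.6 after in control-fed and 11.9 to 13.1 before and 13.9 to 14.5 after in GC-fed skin. In control-fed skin 3 of 6 adipocyte and 2 of 8 muscle markers were higher, and 0 of either in GC-fed skin; 2 of 4 sebaceous markers, Scd3 and Far2, were lower in both diets. Keratinocyte, fibroblast and macrophage markers had 0 calls, and of 5 lymphocyte markers measured 1, Cd3e, was lower in both diets. Across arrays the median diet ratio of the hair follicle markers ran from -2.38 to 1.25. The part of these shifts in the SDS values of the ribosomal protein genes was not tested.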

How the data were processed

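Agilent 2-colour arrays were scanned by the authors with Agilent Feature Extraction 9.1.3.1, per the file headers, and the deposited scanner files give spot intensity in both channels. The authors also deposited gene-level log2 ratios, used as an alternative; how they were scaled is not given in the sources used here. Here intensities were corrected with normexp (offset 50), normalized by loess within arrays (R 4.3.3, limma 3.58.1) and averaged per probe. Genes took their brightest probe that was well above background in at least 3 of 14 channels. Diet effects came from log2 ratios with before, after and dye terms. SDS effects came from a separate-channel fit of 14 samples after Aquantile normalization. The estimated correlation between the channels of a spot was -0.000724, so both samples of an array counted as nearly independent in that fit. Tests were two-sided with Benjamini-Hochberg adjustment over 17110 genes at 0.05. Spots marked as outliers were left out, so 47 genes, 9 of them described here, were fitted on fewer arrays. The number of arrays limits the precision. The fits were also run on simulated data with independent channels and no slide, array or within-spot effect, so that run does not cover such effects.

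The members and gene lists were chosen with earlier results of these data known. Genes named are a set of stalk, reference and paralog genes and, per comparison, the 3 largest values each way and the 2 smallest p; from each other list, at most 3 genes with the smallest p. Rps15, Rpl10a, Rpl18, Rpl24 and the genes of the probe comparison were named after their values were seen. Alternatives changed the background, normalization, probes, filter, dye term, arrays and replicate term.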

Additional observations from a re-analysis of the deposited data

Results flagged for a closer look

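In 5 of 106 groups of 4 values tested, 1 sample stood apart from the other 3 by more than Dixon's 95% limit; chance gives about 1 in 20. The level of Rpl14 in control-fed skin after SDS was 11.2 in sample 3, against 11.5 to 11.6 in the others. Rplp2 was 16.9 in the same sample, against 17.1 in each of the others. Rps27l in GC-fed skin after SDS was 15.3 in sample 4, against 15.0 in the others. On after-SDS array 4 the diet ratio of Rpl36al was -0.065, against 0.19 to 0.24, and that of Rps10 was 0.067, against -0.09 to -0.07.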

How the results depend on the processing

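No ribosomal protein gene passed for diet under any alternative run. Leaving out 1 array, the median diet effect ran from -0.15 to 0.11 before SDS, from -0.03 to 0.11 after, and from -0.05 to 0.22 for the difference. For SDS, leaving out 1 array gave 1 to 3 genes higher and 0 to 12 lower in control-fed skin (median -0.16 to -0.02), and 0 to 3 higher and 2 to 6 lower in GC-fed skin (median -0.05 to 0.09). Over the same fits the share of all genes called moved as well, from 0.661% to 21.5% in control-fed and from 3.16% to 16.1% in GC-fed skin. Without before-SDS array 3, control-fed skin had 1 higher and 7 lower (6.37% of all genes called) and GC-fed skin 0 and 2 (3.3% called). Without before-SDS array 2, control-fed skin had 1 higher (8.48% called) and GC-fed skin 0 higher and 2 lower (3.16% called). Without after-SDS array 3, GC-fed skin had 0 higher (5.62% called). The processed signals gave 1 higher in GC-fed skin, where 7.68% of all genes were called. Testing each probe gave 5 higher and 22 lower in control-fed and 15 lower in GC-fed skin, with more features tested (13.4% and 12.2% of all probes called).

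With the planned background fit and no normalization between arrays, 0 genes were called in either direction in either diet (unadjusted p under 0.05 in limma: 7 and 4), with medians of -0.30 and -0.19 and Rps19bp1 at -0.023 in control-fed skin. With each array at the same median 0 were called as well (unadjusted: 0 and 0), and Rps23 turned to 0.17. In both settings 0 of all 17110 genes were called. The estimated correlation between the channels of a spot was 0.925 and 0.95 there, against -0.000724 in the main fit. The median SE over all genes in control-fed skin was 0.45 and 0.52, against 0.098 in the main fit. With the background fitted without the spots below it, added after seeing the data, no normalization between arrays gave 1 higher and 26 lower in control-fed skin (median -0.29) and 0 higher and 16 lower in GC-fed skin (median -0.19), where 30.4% and 28.4% of all genes were called and their median was itself -0.25, and Rps19bp1 stood at -0.0048 in control-fed skin; each array at the same median gave 1 higher and 11 lower, and 0 higher and 6 lower, against 21.2% and 16.3% of all genes called.

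With the replicate number as a block, 1 gene was higher and 8 lower in control-fed and 0 higher and 3 lower in GC-fed skin, against 9.73% and 8.95% of all genes called. Among the falls of genes named by rule, Rps26 and Rps23 in control-fed and Rpl21 in GC-fed skin no longer passed in limma, with unchanged direction. Rps15, Rpl10a, Rpl18 and Rpl24 were not followed singly, so the lost falls in control-fed skin are not all named. The labels do not say that these numbers pair samples, and the deviations of same-numbered arrays correlated at -0.085, -0.044 and 0.189.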
